A study of Homo sapiens with 6 samples.

Results

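The genes examined were 10 that encode chaperones and proteases of mitochondria, which fold the proteins brought into the organelle and remove those that fail to fold. They were chosen by symbol from the 26255 symbols of the deposited table, and all 10 were found and had a mean FPKM of at least 1, the limit for testing, which 12203 symbols passed. FPKM is the number of fragments per kilobase of transcript, scaled to the mapped fragments of the library, so that levels can be compared between genes. The libraries came from HCT116, a human colorectal cancer cell line, in 3 groups of 2. The groups were parent cells, for which no transfection is described, cells transfected with siLINC01534-1 and cells transfected with siLINC01534-2, 2 siRNAs against the noncoding RNA LINC01534. Libraries of cells given a negative control siRNA were not analysed here, so the effect of transfection and that of an siRNA cannot be told apart.

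Most mitochondrial proteins are made in the cytosol, pulled through the membranes unfolded and folded inside. Mitochondrial Hsp70 (HSPA9) draws them in, and the chamber built of Hsp60 (HSPD1) under a lid of Hsp10 (HSPE1) encloses them while they fold. DNAJA3 is a J protein that works with HSPA9. TRAP1 is the mitochondrial Hsp90. LONP1 and CLPP degrade proteins in the matrix, YME1L1 and AFG3L2 in and beside the inner membrane, and HTRA2 in the intermembrane space. Several of these genes are known to be induced when misfolded protein builds up in mitochondria, a response in which the transcription factors ATF4, ATF5 and DDIT3 (CHOP) take part.

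The targeted RNA was near the limit of detection. LINC01534 had an FPKM of 0.285 and 0.571 in parent cells, 0.660 and 0.551 in the siLINC01534-2 pair and 0.283 in one siLINC01534-1 library, while the other listed it at 0. Of the siLINC01534-2 pair, one value lay above both parent values and the other between them, and levels this low rest on too few reads to show whether either siRNA reduced the RNA. Group names here follow the labels alone. The libraries held an estimated 8694000 to 10423000 reads. Of 7 epithelial markers, 6 were detected, EPCAM from 200 to 204 FPKM in parent, while VIL1 was below 0.1 in every library. The summed FPKM of the 7 was 3458 and 3522 in parent, 2927 to 2932 with siLINC01534-1 and 3335 to 3521 with siLINC01534-2. Of 5 markers of blood, endothelial and stromal cells, PTPRC, PECAM1 and COL1A2 were below 0.1 in every library, while COL1A1 and ACTA2 were not. Their sum was 6.75 and 6.79 in parent, 12.3 to 14.9 with siLINC01534-1 and 7.12 to 7.92 with siLINC01534-2, and its part in the results below was not tested. In bulk RNA, a change in every cell and a change in some of the cells cannot be told apart.

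HSPD1, which changed most of the 10 genes with siLINC01534-1, is on chromosome 2 of GRCh37 (hg19) from 198351308 to 198381461 on the minus strand, and HSPE1 lies inside that annotated span, from 198364864 to 198368173 on the plus strand. The pair are transcribed away from each other from start sites that stand close together. The RefSeq promoter windows, from 250 bases before to 50 bases after a start site, are shown for the pair because their RNAs behaved differently with siLINC01534-1. Capitals mark heat shock element pairs, GAANNTTC or TTCNNGAA, searched on both strands.
HSPD1 promoter, chr2:198364515-198364814, minus strand: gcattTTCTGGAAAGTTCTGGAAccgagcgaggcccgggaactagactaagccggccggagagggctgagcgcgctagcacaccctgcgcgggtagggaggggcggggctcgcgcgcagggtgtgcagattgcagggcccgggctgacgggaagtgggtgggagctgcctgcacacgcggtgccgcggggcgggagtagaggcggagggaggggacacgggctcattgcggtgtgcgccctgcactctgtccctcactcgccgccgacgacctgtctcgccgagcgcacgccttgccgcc
HSPE1 promoter, chr2:198364853-198365152, plus strand: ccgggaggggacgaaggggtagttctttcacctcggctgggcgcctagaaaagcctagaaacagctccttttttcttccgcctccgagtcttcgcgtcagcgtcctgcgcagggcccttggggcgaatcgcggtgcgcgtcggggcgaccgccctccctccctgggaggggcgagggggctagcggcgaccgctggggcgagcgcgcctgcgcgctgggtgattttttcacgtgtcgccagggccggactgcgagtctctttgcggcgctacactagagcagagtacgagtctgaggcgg
The HSPD1 window held 3 overlapping matches, the first 245 bases before its start site, and the HSPE1 window held 0. The matches lie between that start site and the HSPE1 start site, beyond the 250 bases that the HSPE1 window covers. They cannot be assigned to either gene alone by these windows. A further HSPD1 window, at chr2:198364949-198365248, shared 204 bases with that of HSPE1 and held 0. The HSPE1 start site is 539 bases from the HSPD1 start site of the window shown and 105 bases from the other.

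Over all 35116 windows of the RefSeq table (made on GRCh38, here located in GRCh37 by exact match), 13.5% held a heat shock element pair. Windows were found for 8 of the 10 genes, 11 in all, and the pair was also in that of HSPA9. The NRF1 element GCGCATGCG, bound by an activator of many mitochondrial genes, was in 1.92% of all windows. It was in that of DNAJA3 and in the LONP1 window at chr19:5720414-5720713. A further LONP1 window, at chr19:5720108-5720407, held 0. The CEBP-ATF element TGATGNAA was in 3.62% of all windows and in 0 of the 11. The stretches around the matches of these 3 genes read as follows, with the match in capitals.
HSPA9, chr5:137911076-137911105, minus strand: tggttggaggtTTCCAGAAgcgctgccgcc
DNAJA3, chr16:4475790-4475819, plus strand: gcgtgcgcgaCGCATGCGCctctacgcgcg
LONP1, chr19:5720644-5720673, minus strand: ctgaagccctGCGCATGCGCatcaatgagt
A match of letters is not evidence of binding.

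In parent cells, HSPD1 was the most abundant of the 10, with FPKM of 1095 and 1062, and ranked 105 among all symbols. HSPE1 followed at 628 and 679 and ranked 150. HSPA9 stood at 262 and 264, and TRAP1 at 180 and 185. The proteases were lower. LONP1 had 82.1 and 85.8, CLPP 73.0 and 80.1, YME1L1 65.3 and 63.3, and AFG3L2 48.4 and 48.5. DNAJA3 lay between the last pair at 59.1 and 57.9, and HTRA2 was the lowest at 13.7 and 12.4. No neighbours in this order overlapped between the parent libraries. With siLINC01534-1 the order changed, and HSPD1 stood below HSPE1 and just below HSPA9.

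**Figure D1:**
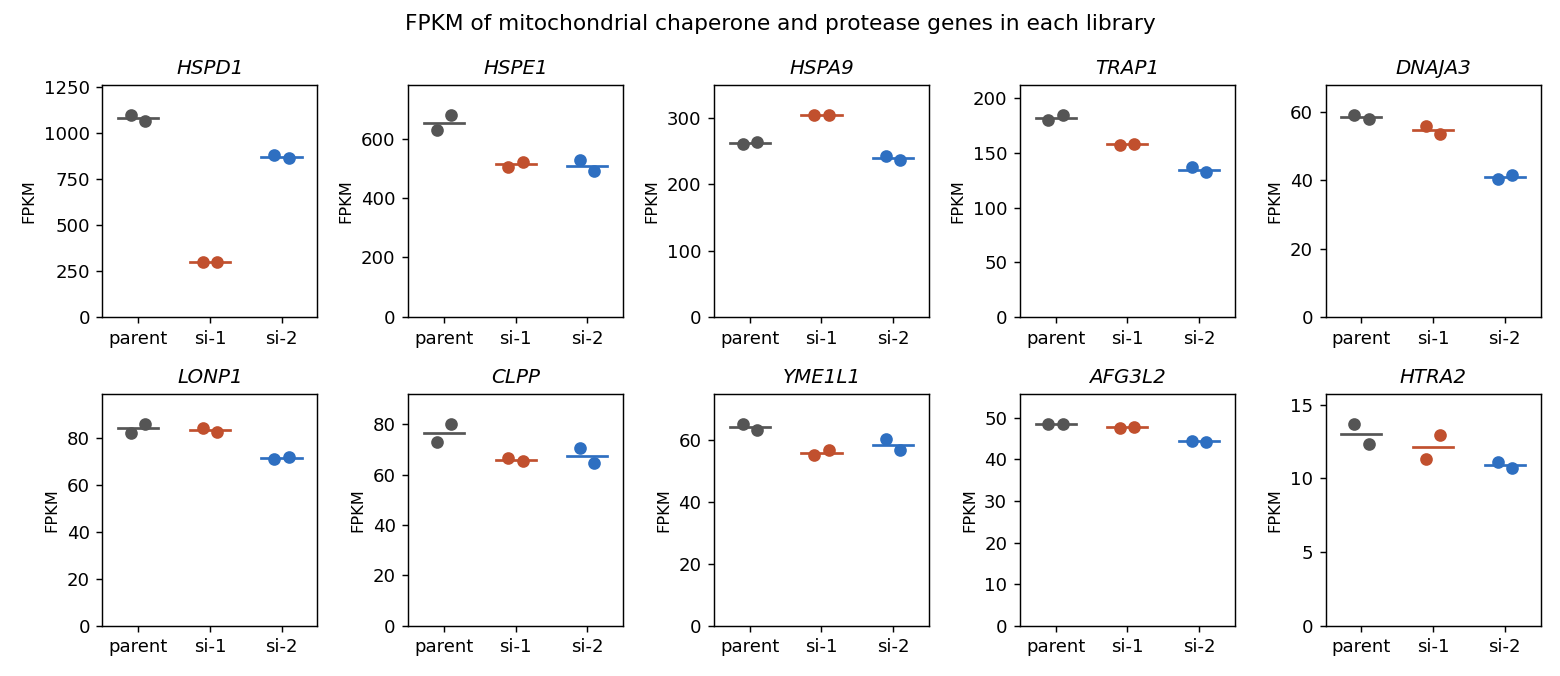
FPKM of each of the 10 genes (vertical axis, from 0) in the 2 parent, 2 siLINC01534-1 (si-1) and 2 siLINC01534-2 (si-2) libraries, with points for libraries and lines for group means. HSPD1 falls from 1095 and 1062 to 299 and 298 with siLINC01534-1, and HSPA9 is higher there than in parent. With siLINC01534-2 the points of all 10 genes lie below both parent points, a pattern whose share over all genes was not computed. Of the 10, 7 pass the threshold as lower with that siRNA, beside 11.8% of all genes.

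limma was applied to log2(FPKM + 1) of all 12203 genes, with a Benjamini-Hochberg adjusted p under 0.05 as the threshold. Against parent, the mean of both siRNAs was lower for 7 of the 10 genes and higher for 0, where 20.1% of all genes were lower and 17.1% higher. With siLINC01534-1, 5 were lower and 1 higher (24.5% and 21.8% of all genes), and with siLINC01534-2, 7 were lower and 0 higher (11.8% and 11.1%). By the mean of both siRNAs the log2 fold changes of the 7 were -1.08 for HSPD1, -0.35 for HSPE1, -0.32 for TRAP1, -0.30 for DNAJA3, -0.19 for CLPP, -0.16 for YME1L1 and -0.12 for LONP1. The siRNAs differed from each other in 5 of the 10, with 4 higher and 1 lower with siLINC01534-1, beside 19.5% and 22.3% of all genes. The median log2 fold change of the 10 was -0.18 for the mean of both siRNAs, -0.15 for siLINC01534-1 and -0.23 for siLINC01534-2, and those of all tested genes were -0.0068, 0.0003 and 0.0018. In 7 of the 10, all 4 siLINC01534 libraries lay below both parent libraries, as in 19.3% of all genes. The counts against parent depended on single libraries. For the mean of both siRNAs and for siLINC01534-2, fewer of the 10 passed with any 1 library left out. Fewer of all genes passed in these fits as well. With the 4 siLINC01534 libraries as 1 group, the difference between the siRNAs counts as error, and 1 of the 10 passed, with 4 at an unadjusted p under 0.05. Of all 12203 genes, 361 passed in that fit, in place of 4541.

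**Figure D2:**
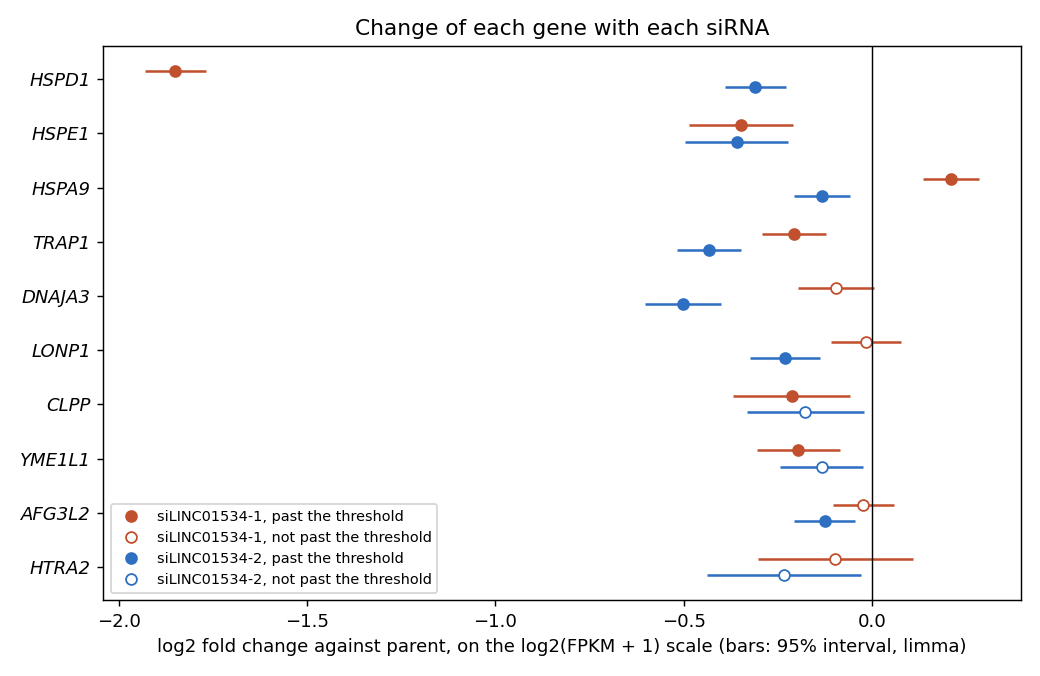
Log2 fold change of each gene against parent on the log2(FPKM + 1) scale for siLINC01534-1 (red) and siLINC01534-2 (blue), with 95% intervals from limma as bars and filled points past the threshold. HSPD1 stands apart at -1.85 with siLINC01534-1, HSPE1 has almost the same value with either siRNA, and HSPA9 is on opposite sides of 0.

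HSPD1, the subunit of the folding chamber, fell most of the 10 with siLINC01534-1. Its FPKM was 1095 and 1062 in the parent pair, 299 and 298 in the siLINC01534-1 pair, and 879 and 862 in the siLINC01534-2 pair. The 3 groups did not overlap, and the siLINC01534-1 libraries were far below the rest. The level was 3.62-fold lower than in parent with siLINC01534-1, a log2 fold change of -1.85 (SE 0.0323, limma adjusted p = 1.17e-05), and 0.533% of the tested genes had a lower value. It was 1.24-fold lower with siLINC01534-2, a log2 fold change of -0.31 (SE 0.0323, limma adjusted p = 0.00395). The difference between the siRNAs was -1.54 on the log2 scale (95% interval -1.62 to -1.46, limma adjusted p = 2.26e-05). These calls passed in all 12 alternatives run. An estimated 5418 to 22583 reads a library lay behind the values, a counting error of at most 1.36%.

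HSPE1, the lid of that chamber, did not follow HSPD1 with siLINC01534-1. Its FPKM was 628 and 679 in the parent pair, 505 and 521 in the siLINC01534-1 pair, and 527 and 491 in the siLINC01534-2 pair. All 4 siLINC01534 libraries were below both parent libraries, and the siRNA groups overlapped each other. The log2 fold change was -0.35 with siLINC01534-1 (SE 0.0551, limma adjusted p = 0.00483) and -0.36 with siLINC01534-2 (SE 0.0551, limma adjusted p = 0.0111). The latter call was lost without parent library 2 or without siLINC01534-2 library 2 (limma adjusted p = 0.0606 and 0.0639). The difference between the siRNAs was 0.012, with a 95% interval from -0.13 to 0.15 (limma adjusted p = 0.881). The interval of the HSPD1 change with siLINC01534-1 ran from -1.93 to -1.77 and that of HSPE1 from -0.48 to -0.21. The ratio of HSPD1 to HSPE1 FPKM was 1.74 and 1.56 in the parent pair, 0.591 and 0.572 in the siLINC01534-1 pair, and 1.67 and 1.75 in the siLINC01534-2 pair. Only the siLINC01534-1 libraries had less HSPD1 than HSPE1 RNA per length.

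**Figure D3:**
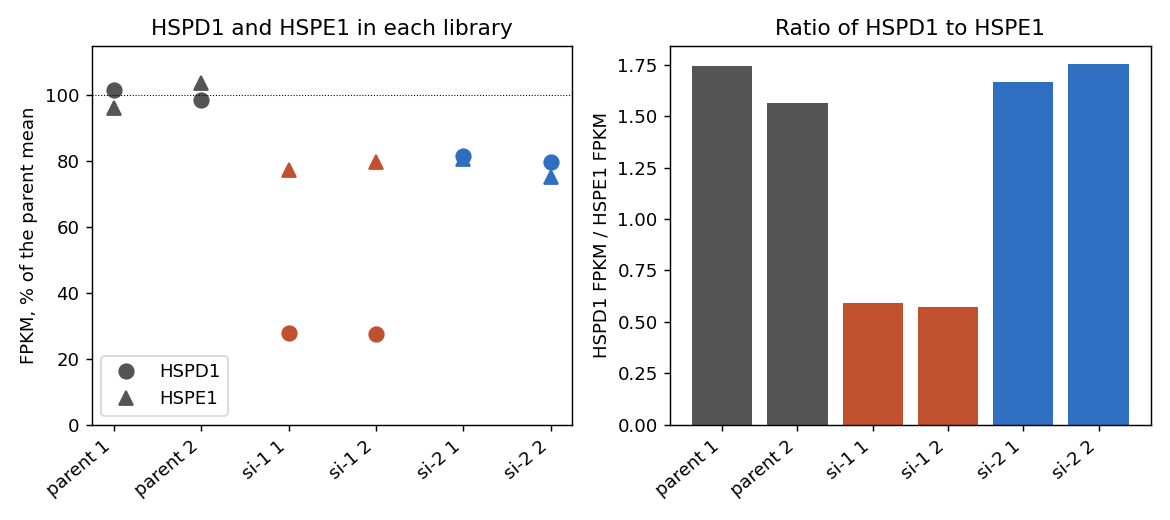
Left, FPKM of HSPD1 (circles) and HSPE1 (triangles) in each library as a percent of the parent mean; right, the ratio of HSPD1 to HSPE1 FPKM in each library, as bars from 0. HSPD1 averages 27.7% of the parent level with siLINC01534-1 and HSPE1 78.5%, whereas the pair stand at 80.7% and 77.9% with siLINC01534-2.

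HSPA9, the Hsp70 that drives import and early folding, rose with one siRNA and fell with the other. Its FPKM was 262 and 264 in the parent pair, 305 and 304 in the siLINC01534-1 pair, and 243 and 237 in the siLINC01534-2 pair. The 3 groups did not overlap. The log2 fold change was 0.21 with siLINC01534-1 (SE 0.0299, limma adjusted p = 0.00332), a call that passed in all 12 alternatives, and -0.13 with siLINC01534-2 (SE 0.0299, limma adjusted p = 0.0313), which passed in 3 of 12 and was lost when any 1 library was left out (limma adjusted p from 0.0601 to 0.118). The siRNAs differed by 0.34 (95% interval 0.27 to 0.42, limma adjusted p = 0.000845). For the mean of both siRNAs the change was 0.039 (95% interval -0.026 to 0.10, limma adjusted p = 0.290).

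TRAP1 and DNAJA3 were lowest with siLINC01534-2. TRAP1 had an FPKM of 180 and 185 in the parent pair, 157 and 159 in the siLINC01534-1 pair, and 137 and 132 in the siLINC01534-2 pair. The groups did not overlap, and TRAP1 changed by -0.21 on the log2 scale with siLINC01534-1 (SE 0.0341, limma adjusted p = 0.00553) and by -0.43 with siLINC01534-2 (SE 0.0341, limma adjusted p = 0.00185). The siRNAs differed by 0.23 (95% interval 0.14 to 0.31, limma adjusted p = 0.00487). DNAJA3 had 59.1 and 57.9 in the parent pair, 55.9 and 53.6 in the siLINC01534-1 pair, and 40.4 and 41.7 in the siLINC01534-2 pair. Its change was -0.50 with siLINC01534-2 (SE 0.0402, limma adjusted p = 0.00192), the lowest of the 10 with that siRNA, and -0.095 with siLINC01534-1 (95% interval -0.20 to 0.0055, limma adjusted p = 0.106). The difference between the siRNAs was 0.41 (95% interval 0.31 to 0.51, limma adjusted p = 0.00123).

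The matrix proteases differed in pattern. LONP1, an ATP-driven protease that also binds mitochondrial DNA, had an FPKM of 82.1 and 85.8 in the parent pair, 83.9 and 82.2 in the siLINC01534-1 pair, and 71.0 and 71.8 in the siLINC01534-2 pair. The siLINC01534-1 libraries lay within the parent range, and the siLINC01534-2 libraries lay below it. LONP1 changed by -0.23 on the log2 scale with siLINC01534-2 (SE 0.0369, limma adjusted p = 0.0124; 0.061 without parent library 2, 0.0631 and 0.0611 without siLINC01534-2 library 1 or 2), and its value with siLINC01534-1 was -0.015 (95% interval -0.11 to 0.077, limma adjusted p = 0.766). The difference between the siRNAs was 0.22 (95% interval 0.12 to 0.31, limma adjusted p = 0.00737). The change for the mean of both siRNAs was -0.12 (SE 0.0320, limma adjusted p = 0.0320), and passed in 3 of 12 alternatives, in none of those without 1 library (limma adjusted p from 0.054 to 0.147).

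CLPP, the proteolytic core of the ClpXP protease, had an FPKM of 73.0 and 80.1 in the parent pair, 66.4 and 65.3 in the siLINC01534-1 pair, and 70.5 and 64.7 in the siLINC01534-2 pair. All 4 siLINC01534 values were below both parent values. The log2 fold change was -0.21 with siLINC01534-1 (SE 0.0623, limma adjusted p = 0.0377), which passed in 5 of 12 alternatives (0.156 without parent library 2, 0.119 and 0.147 without siLINC01534-1 library 1 or 2), and -0.18 with siLINC01534-2 (95% interval -0.33 to -0.022, limma adjusted p = 0.0983). For the mean of both siRNAs it was -0.19 (SE 0.0539, limma adjusted p = 0.0383), which passed in 2 of 12, and of the 6 fits without 1 library only in that without siLINC01534-2 library 1 (limma adjusted p up to 0.197 in the others). The siRNAs differed by -0.036, with an interval from -0.19 to 0.12 (limma adjusted p = 0.676).

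Of the inner membrane proteases, YME1L1 works towards the intermembrane space and AFG3L2 towards the matrix. YME1L1 had an FPKM of 65.3 and 63.3 in the parent pair, 55.3 and 56.7 in the siLINC01534-1 pair, and 60.4 and 56.8 in the siLINC01534-2 pair. The siLINC01534 libraries were all below the parent libraries, with a log2 fold change of -0.20 for siLINC01534-1 (SE 0.0442, limma adjusted p = 0.0163) and -0.13 for siLINC01534-2 (95% interval -0.24 to -0.022, limma adjusted p = 0.0867). The first call was lost without any 1 of the parent or siLINC01534-1 libraries (limma adjusted p from 0.0503 to 0.0808), and that for the mean of both siRNAs, -0.16 (limma adjusted p = 0.0229), without the same libraries (0.0536 to 0.125). The siRNAs differed by -0.063, with an interval from -0.17 to 0.047 (limma adjusted p = 0.295). AFG3L2 had 48.4 and 48.5 in the parent pair, 47.7 and 47.8 in the siLINC01534-1 pair, and 44.5 and 44.3 in the siLINC01534-2 pair. Replicates differed by little and the groups did not overlap, but the changes were small. They were -0.023 with siLINC01534-1 (95% interval -0.10 to 0.058, limma adjusted p = 0.600) and -0.13 with siLINC01534-2 (SE 0.0324, limma adjusted p = 0.0451), which passed in 2 of 12 alternatives and was lost when any 1 library was left out (limma adjusted p from 0.0714 to 0.134). The siRNAs differed by 0.10 in AFG3L2 (95% interval 0.022 to 0.18, limma adjusted p = 0.0514), which passed without the filter and with scaling to the same median (0.0400 and 0.0362).

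HTRA2, a serine protease released from mitochondria in apoptosis, had an FPKM of 13.7 and 12.4 in the parent pair, 11.3 and 12.9 in the siLINC01534-1 pair, and 11.1 and 10.7 in the siLINC01534-2 pair. The siLINC01534-1 libraries overlapped the parent libraries, and the siLINC01534-2 libraries were below both. The log2 fold changes were -0.097 (95% interval -0.30 to 0.11, limma adjusted p = 0.375) and -0.23 (95% interval -0.44 to -0.027, limma adjusted p = 0.0993). The siRNAs differed by 0.14 (95% interval -0.070 to 0.34, limma adjusted p = 0.235). HTRA2 had the fewest reads of the 10, an estimated 153 to 219 a library and a counting error of up to 8.07%.

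The genes whose log2(FPKM + 1) was most like that of HSPD1 over the 6 libraries were ABCE1, EIF1AX and PDE4B, each with a Pearson r of 0.999. ABCE1, a ribosome recycling factor, had 95.5 and 90.1 FPKM in the parent pair, 39.4 and 38.5 in the siLINC01534-1 pair, and 82.9 and 79.5 in the siLINC01534-2 pair. With 3 groups of libraries, such values mostly state the order and spacing of the group means. HSPE1 had an r of 0.583 and ranked 3830, behind YME1L1 at 0.796 and rank 2662, and HSPA9 had -0.849.

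The siRNA target sites in LINC01534 are shown because a strand of an siRNA can also pair with other RNAs through its positions 2 to 8. Capitals mark the bases that pair with these positions of the antisense strand.
siLINC01534-1, chr19:37177640-37177658, minus strand: atcgagtggtgGAATAAAa
siLINC01534-2, chr19:37177588-37177606, minus strand: gaacgaggcttTTCGAGTt
Each gene's longest coding transcript was searched in its 3′ UTR, which 10595 tested genes have. GAATAAA was found in 2830 of them (26.7%), HSPD1 and YME1L1 among the 10. The letters include AATAAA, the usual polyadenylation signal, so that a match can be part of one. TTCGAGT was found in 202 genes (1.91%) and in 0 of the 10. The matches in the members read as follows, with the unbroken match to the siRNA site in capitals.
HSPD1, chr2:198351545-198351563, minus strand: tttgtatttttGAATAAAA
YME1L1, chr10:27400499-27400517, minus strand: agattgaccatGAATAAAA
Both had 8 unbroken matching bases, and 12 and 10 of 19 bases in all were identical to the siLINC01534-1 site. The HSPD1 site ends 236 bases before the transcript end and the YME1L1 site 1460 bases before it. As siLINC01534-1 minus siLINC01534-2 on the log2 scale, the difference was -1.54 for HSPD1. For YME1L1 it was -0.063, which did not pass the test (limma adjusted p = 0.295). Of all genes with GAATAAA, 1169 of 2830 (41.3%) were lower with siLINC01534-1, against 1600 of 7765 (20.6%) without it. With siLINC01534-2 the shares were 11.7% and 12.7%. The part of such pairing in the HSPD1 and YME1L1 results was not tested.

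Genes that work beside the 10 were read from lists of 66 genes in all. By the mean of both siRNAs 27 were lower and 6 higher, where 20.1% of all genes were lower and 17.1% higher. The counts were 27 and 9 with siLINC01534-1 (24.5% and 21.8% of all genes), and 18 and 6 with siLINC01534-2 (11.8% and 11.1%). Of 14 genes of mitochondrial content (respiratory subunits, citric acid cycle enzymes, porins and TFAM), 10 were lower and 0 higher for the mean of both siRNAs, with a median of -0.22, close to the -0.18 of the chaperones and proteases. TFAM, which packages mitochondrial DNA, had 18.7 and 17.3 FPKM in the parent pair, 8.60 and 7.85 in the siLINC01534-1 pair, and 17.0 and 17.7 in the siLINC01534-2 pair, and IDH3A, a citric acid cycle subunit, showed the same order. Their log2 fold changes with siLINC01534-1 were -1.04 and -1.06 (limma adjusted p = 0.000223 and 0.000156), and with siLINC01534-2 they were -0.049 and -0.13 (limma adjusted p = 0.620 and 0.176). Of the 7 subunits of the outer membrane entry channel, 4 were lower and 0 higher for the mean of both siRNAs, led by TOMM7 at -0.28 and TOMM22 at -0.23 (limma adjusted p = 0.0202 and 0.0114). With siLINC01534-1, 4 of the 7 were lower, and with siLINC01534-2, 1 was. TOMM7 had -0.51 and -0.042 with the siRNAs (limma adjusted p = 0.00314 and 0.707). TOMM22 had -0.32 and -0.15 (limma adjusted p = 0.00481 and 0.09). Of 13 inner membrane import and Hsp70 motor genes, 1 was lower and 1 higher. For the mean of both siRNAs, these were the nucleotide exchange factors of mitochondrial Hsp70, GRPEL1 at -0.19 and GRPEL2 at 0.26 (limma adjusted p = 0.0217 and 0.0436). With siLINC01534-1 and siLINC01534-2, GRPEL1 had -0.088 and -0.29 (limma adjusted p = 0.204 and 0.0152). GRPEL2 had 0.27 and 0.24 (limma adjusted p = 0.0482 and 0.0992).

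**Figure D4:**
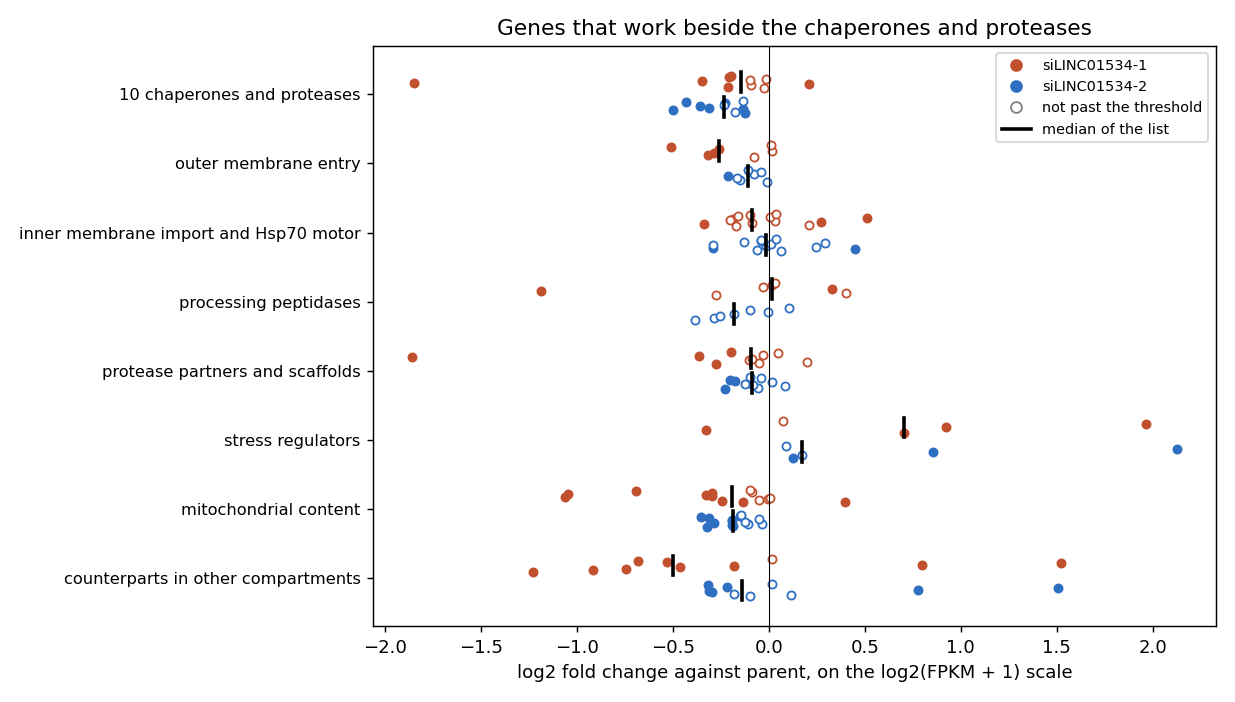
Log2 fold change against parent (log2(FPKM + 1) scale) of each gene in the chaperone and protease list and the 7 related lists, for siLINC01534-1 (red) and siLINC01534-2 (blue), filled where past the threshold, with black bars at list medians. Values with siLINC01534-2 mostly lie within 0.5 of 0, and the stress regulator DDIT3 and the endoplasmic reticulum chaperone HSPA5 are above 1 with either siRNA.

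Of 10 protease partners and scaffolds, 4 were lower and 0 higher for the mean of both siRNAs (20.1% and 17.1% of all genes). PARL, a rhomboid protease of the inner membrane, had an FPKM of 36.0 and 41.1 in the parent pair, 10.3 and 9.47 in the siLINC01534-1 pair, and 43.3 and 35.1 in the siLINC01534-2 pair. It was low only in the siLINC01534-1 libraries, with a log2 fold change of -1.86 (limma adjusted p = 0.000225), close to that of HSPD1, and 0.019 with siLINC01534-2 (limma adjusted p = 0.923). PHB, a prohibitin of the scaffold around AFG3L2, changed by -0.37 with siLINC01534-1 and -0.18 with siLINC01534-2 (limma adjusted p = 0.000592 and 0.0164). CLPX, SPG7 and OMA1, set beside CLPP, AFG3L2 and YME1L1, did not pass with either siRNA. CLPX, the unfoldase of CLPP, had -0.10 and -0.082 with the siRNAs (limma adjusted p = 0.0747 and 0.172). SPG7, the partner of AFG3L2, had 0.048 and -0.039 (0.460 and 0.608), and OMA1, which shares substrates with YME1L1, had -0.088 and -0.12 (0.603 and 0.524). Of 7 processing peptidases 1 was lower, MIPEP, at -1.19 with siLINC01534-1 and -0.25 with siLINC01534-2 (limma adjusted p = 0.000249 and 0.0676).

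Chaperones of other compartments were set beside their mitochondrial relatives. Of 10, 7 were lower and 2 higher for the mean of both siRNAs (20.1% and 17.1% of all genes). The endoplasmic reticulum Hsp70, HSPA5 (BiP), had an FPKM of 255 and 254 in the parent pair, 740 and 724 in the siLINC01534-1 pair, and 695 and 757 in the siLINC01534-2 pair. The 4 siLINC01534 libraries were far above parent, with log2 fold changes of 1.52 and 1.51 (limma adjusted p = 4.67e-05 and 0.000148), where HSPA9 had 0.21 and -0.13. The cytosolic Hsp70, HSPA8, changed by -0.53 and -0.22 (limma adjusted p = 0.000198 and 0.00893). Among the Hsp90 relatives of TRAP1, HSP90B1 of the endoplasmic reticulum rose by 0.80 and 0.78 (limma adjusted p = 7.77e-05 and 0.000264). The cytosolic HSP90AA1 had -0.46 and -0.29 (0.000341 and 0.00474), and HSP90AB1 had -0.18 and -0.31 (0.0155 and 0.0072), against -0.21 and -0.43 for TRAP1.

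The cytosolic J proteins had the reverse order of DNAJA3. DNAJA1 had an FPKM of 357 and 348 in the parent pair, 152 and 148 in the siLINC01534-1 pair, and 326 and 332 in the siLINC01534-2 pair. The log2 fold changes with siLINC01534-1 were -1.23 for DNAJA1, -0.91 for DNAJA2 and -0.74 for DNAJA4 (limma adjusted p = 3.7e-05, 8.18e-05 and 0.000284). With siLINC01534-2 they were -0.10, 0.12 and -0.18, which did not pass (limma adjusted p = 0.0865, 0.0814 and 0.0516). GAATAAA was in the 3′ UTR of 17 of the 66 related genes, these J proteins among them, and 8 of the 17 (47.1%) were lower with siLINC01534-1, against 19 of the 49 (38.8%) without it, PARL included. The 8 were DNAJA1, DNAJA2, DNAJA4, HSPH1, TFAM, IDH3A, MIPEP and TOMM7. The other 9 did not pass and had log2 fold changes from -0.17 for DNAJC15 to 0.40 for IMMP2L. They were CLPX, OMA1, CLPB, VDAC2, PMPCB, TIMM21, TIMM44 and these ends of the range. All but CLPX and OMA1 were named for the match alone. HSPH1, a cytosolic Hsp110, had -0.68 and -0.32 (limma adjusted p = 0.000262 and 0.00867), and LONP2, the peroxisomal relative of LONP1, had 0.015 with either siRNA (limma adjusted p = 0.825 and 0.855).

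Of the 5 stress regulators, 3 rose for the mean of both siRNAs, where 17.1% of all genes were higher. DDIT3, the factor CHOP, had an FPKM of 17.5 and 19.5 in the parent pair, 76.7 and 73.5 in the siLINC01534-1 pair, and 78.5 and 90.2 in the siLINC01534-2 pair. The siLINC01534 libraries were all above parent, and the log2 fold changes were 1.97 and 2.13 (limma adjusted p = 8.52e-05 and 0.000258). CEBPB, its partner, changed by 0.92 and 0.85 (limma adjusted p = 0.000384 and 0.00192), and ATF4, which induces amino acid and stress genes, by 0.70 and 0.13 (8.52e-05 and 0.0341). ATF5 went the other way with siLINC01534-1, at -0.33 (limma adjusted p = 0.0322), and had 0.18 with siLINC01534-2 (limma adjusted p = 0.222). HSF1, the heat shock factor, had 0.074 and 0.090 (limma adjusted p = 0.147 and 0.128).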

How the data were processed

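RNA of 6 HCT116 libraries, 2 a group, was sequenced by the authors as stranded poly(A) libraries. Their processing notes name TopHat2 2.0.13, Bowtie2 2.2.3, SAMtools 0.1.19 and Cufflinks 2.2.1 with hg19, and the deposited values are FPKM per gene symbol. The annotation is not given in the sources used here. The labels give an RNeasy kit and 2 libraries a group, the methods a miRNeasy kit and triplicate cultures. As the labels do not call the libraries separate cultures, p-values measure only the spread between libraries, which may be technical.

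Groups came from the labels. limma 3.58.1 in R 4.3.3 (lmFit, contrasts.fit, eBayes with trend), tested on simulated data, was fitted to log2(FPKM + 1) of the 12203 genes whose mean FPKM reached 1, with 1 mean per group, a shared spread and two-sided Benjamini-Hochberg adjustment. Folds are ratios of mean FPKM. Of 3717 low genes, 65.8% had values that were whole multiples of 1 step within 0.05. These steps, with 250 single-transcript genes and 200 bases taken off their length, gave the estimated reads, whose errors cover counting only. Sites were read from GRCh37 and GENCODE with Python 3.11.15, pandas 2.3.3 and numpy 2.4.6.

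The 10 genes, related lists, tests and alternatives were chosen with earlier results of these data known. Named are the 10, their relatives in other compartments, the partners CLPX, SPG7 and OMA1, and in each related list the 2 largest increases and 2 largest decreases called by the mean of both siRNAs. ATF4, ATF5, HSF1 and DNLZ were named after their values were seen. Pseudogenes of the 10 had 0 entries, so reads shared with them were not examined. The entry HSPE1-MOB4, which can share reads with HSPE1, had an FPKM from 0.274 to 0.622. The alternatives were a pseudocount of 0.1, no filter, scaling to the same median, a replicate block, eBayes without trend, the compared groups alone, the 4 siLINC01534 libraries as 1 group, and each library left out.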

Additional observations from a re-analysis of the deposited data

Results flagged for a closer look

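The change from parent differed between the siRNAs, by the limma test of the difference itself (Benjamini-Hochberg adjusted p), for 5 of the 10 genes, 4 higher and 1 lower with siLINC01534-1. Of all tested genes, 19.5% were higher and 22.3% lower in this comparison. Over both directions together, 5096 of all 12203 genes passed, so that 5 of 10 is near the background. As siLINC01534-1 minus siLINC01534-2 on the log2 scale, the difference was -1.54 for HSPD1 (adjusted p = 2.26e-05), with both siLINC01534-1 libraries below both siLINC01534-2 libraries. It was 0.34 for HSPA9 (adjusted p = 0.000845), 0.23 for TRAP1 (adjusted p = 0.00487), 0.41 for DNAJA3 (adjusted p = 0.00123) and 0.22 for LONP1 (adjusted p = 0.00737). In these 4, both siLINC01534-2 libraries were below both siLINC01534-1 libraries.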

How the results depend on the processing

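Of the recomputed log2 fold changes of the 10 genes, 412 kept their direction and side of the threshold, 62 lost the call, 2 gained one and 4 reversed. The reversals were all of values that did not pass, with a library left out, and the ranges were -0.0394 to 0.0632 for HSPE1 between the siRNAs, -0.0464 to 0.0165 for LONP1 with siLINC01534-1 and -0.0956 to 0.0245 for CLPP between the siRNAs. The counts of called genes stayed within 1.5 times in 40 of 48 comparisons. With the 4 siLINC01534 libraries as 1 group, 1 of the 10 was called for the mean of both siRNAs in place of 7. With each library left out, the count was 4 to 6 for the mean of both siRNAs, and 3 to 5 for siLINC01534-2 in place of 7. Without the filter on low values, or with scaling to the same median, 6 of the 10 were called for the mean of both siRNAs. In single-library omissions that leave a group with 1 library, that library is assumed to vary like the other groups.

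Same-numbered libraries had correlations of deviations of 0.114, 0.027 and -0.0456, so the numbers were not shown to pair the libraries. With a replicate block, 5 of the 10 were called in each contrast. Over all 12203 genes, 3892 were called for the mean of both siRNAs, 5114 for siLINC01534-1 and 1993 for siLINC01534-2. Between the siRNAs, 4438 were called. HTRA2 had the fewest estimated reads.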

Other observations

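DNLZ, a chaperone that keeps HSPA9 soluble, moved in opposite directions with the siRNAs and was picked from the related lists after its values were seen. Its FPKM was 18.9 and 17.9 in the parent pair, 14.6 and 14.1 in the siLINC01534-1 pair, and 26.0 and 24.9 in the siLINC01534-2 pair. The groups did not overlap. The log2 fold changes were -0.34 and 0.45 (limma adjusted p = 0.00412 and 0.00497), in the reverse directions to HSPA9.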
